A study of Sus scrofa with 30 samples.

Results

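Inverted teats of affected pigs were compared with normal teats of pigs without inverted teats, in the epithelial tissue layer. The comparison takes 10 of the 30 arrays of the series, chosen by the tissue, teat and animal labels alone and not by any measured value. An inverted teat came from each of the 5 affected animals 963, 964, 1037, 1059 and 1103, and a normal teat from each of the 5 non-affected animals 950, 957, 1040, 1058 and 1109. No animal gave tissue to both groups, so the comparison is unpaired and joins a difference in teat form with a difference in animal status. Each group held 1 German Landrace pig (963 among the affected and 957 among the non-affected), 3 crosses of Large White with German Landrace, and 1 Pietrain cross (1103 and 1109). The pigs came from commercial dam lines, were peripubertal and were slaughtered at a mean weight of 110 kg, and the labels name no treatment or engineered allele. Teats were classed as inverted or normal by inspection and palpation, and each array held RNA of 1 tissue sample on the Affymetrix Porcine Genome Array. Where per-animal values are given, they follow the order of animals given here. All levels are log2 probe set values, differences are inverted minus non-affected on that scale, and their errors are standard errors (SE) of the linear model.

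A teat forms around a mammary bud, an ingrowth of the surface epithelium into specialised mesenchyme. The bud epithelium secretes parathyroid hormone-like hormone (PTHLH), which acts through the receptor PTH1R on the mesenchyme, raises its response to bone morphogenetic protein (BMP) 4 and, in mice, is required for nipple skin. In an inverted teat the tip is drawn inwards instead of protruding, so piglets cannot suckle from it. The adult teat joins a keratinised outer skin, a canal and ducts lined by epithelium, skin glands, smooth muscle, vessels and connective tissue.

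The epithelial label was checked against marker genes before any comparison. Cytokeratin 8 (KRT8), a filament protein of simple and glandular epithelium, measured 10.96, 10.84, 10.77, 9.87 and 7.24 in inverted teats, against 9.64, 10.59, 10.51, 9.66 and 10.64 in non-affected animals. Averaged over KRT8, KRT18 and KRT19, the level was 10.50, 10.49, 10.18, 9.59 and 6.75 in inverted teats and 9.67, 10.37, 10.23, 9.27 and 10.52 in non-affected animals, so the inverted teat of animal 1103 lay below the other 9 arrays. On that array the adhesion proteins EPCAM, E-cadherin (CDH1) and desmoplakin (DSP) measured 4.69, 4.87 and 4.63, while desmin (DES), an intermediate filament of muscle, was at 10.99. It also had the lowest median correlation with the other 9 arrays, 0.87, against 0.912 to 0.939 for the rest. These epithelial markers were thus high on 9 arrays and low on this 1. They were not compared with the mesenchymal arrays here, so they do not show which layer a piece came from. Differences and medians that move by more than 1.5 times without the array of animal 1103 are also given without it. Animals also differed in milk protein genes within each group: beta-casein (CSN2) measured 14.80, 15.33, 4.66, 5.52 and 5.82 in inverted teats, against 13.90, 14.94, 4.51, 5.33 and 4.90 in non-affected animals. High CSN2 thus occurred in animals 963 and 964 among inverted teats and in 950 and 957 among non-affected animals. KRT5, KRT14, ACTA1 and PLIN1 have no probe set with a single gene symbol here and were not analysed.

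Skeletal muscle transcripts were present on some arrays of both groups. The mean over 11 genes of fast skeletal muscle was 9.92, 8.43, 9.06, 3.65 and 5.56 in inverted teats, against 8.0, 3.86, 2.69, 8.94 and 2.85 in non-affected animals. It was thus high in 3 inverted teats and in 2 non-affected animals, and the groups overlapped. In bulk tissue, a smaller share of cells of a type and less RNA per cell cannot be told apart.

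**Figure D1:**
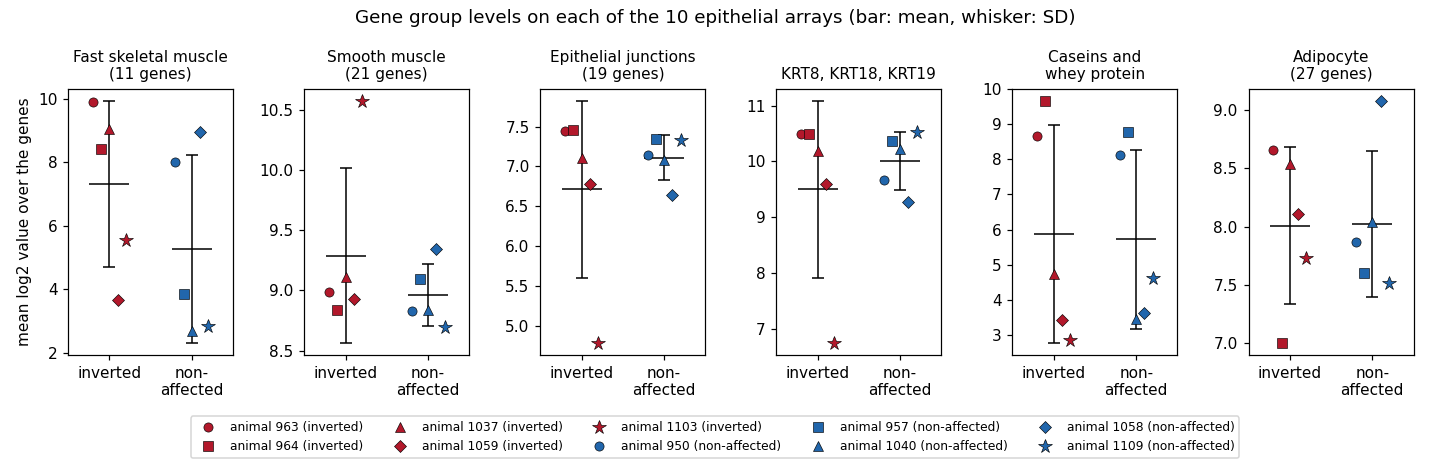
Mean log2 value over the genes of each marker group (y axis) on each of the 10 epithelial arrays, inverted teats on the left and normal teats of non-affected animals on the right of each panel. Points are single animals, the bar is the group mean and the whisker the SD. The keratin mean of animal 1103 is 6.75, below the other 9 arrays, and the fast muscle means of both groups overlap.

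No probe set differed between inverted teats and non-affected animals at a Benjamini-Hochberg adjusted p under 0.05: limma called 0 of 17065 probe sets (0%), and the lowest adjusted p was 0.9996. Every tested gene named here has an adjusted p of at least that value, and its difference is a description of these 10 animals. At an unadjusted p under 0.05 there were 445 probe sets, or 2.61% of those tested. Of these, 231 (1.35%) were higher and 214 (1.25%) lower in inverted teats. Median centring of the arrays turned this split into 306 higher and 168 lower, and quantile normalization into 285 and 176, with 0 adjusted calls in each. The 5 inverted teats lay entirely above the 5 non-affected animals for 52 probe sets (0.305%) and entirely below them for 28 (0.164%). The median Pearson correlation over probe sets was 0.928 over 20 pairs of arrays within groups and 0.936 over 25 pairs between them.

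The precision bounds what a difference could be. The 95% confidence interval of a probe set difference reached 0.40 to either side in the median, and for most probe sets between 0.29 and 0.69. Counts of higher and lower genes in a list refer to the group means alone. With 1 animal left out in turn, the median took both signs for 24 of the 37 lists, and leaving out animal 1103 turned it for 10. Of 5901 genes tested, each by 1 probe set, 22 were higher and 25 lower in inverted teats by at least 1, which is 2-fold. The greatest of these differences came from genes that varied widely between animals of the same group.

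**Figure D2:**
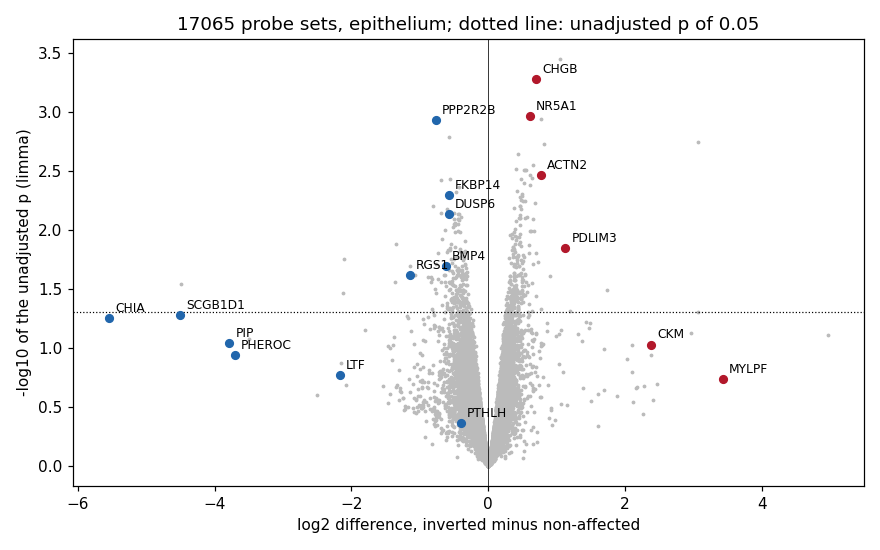
Difference in log2 value, inverted minus non-affected (x axis), against the negative log10 of the unadjusted limma p (y axis) for the 17065 probe sets tested, with named genes marked. CHIA, SCGB1D1, PIP and PHEROC lie far to the left and MYLPF far to the right, below the dotted line, while CHGB, NR5A1 and PPP2R2B lie highest among the marked genes at differences under 1 in either direction.

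Among genes with a symbol, the 4 largest lower means in inverted teats belonged to genes of secreted proteins, whose values were far lower in most inverted teats and in non-affected animal 1058 than in the other animals. Acidic chitinase (CHIA), a secreted enzyme that degrades chitin, measured 0, 10.56, 0, 0 and 5.80 in inverted teats, against 12.92, 11.01, 9.19, 0 and 10.95 in non-affected animals. The secretoglobin SCGB1D1, a small secreted protein of glands, measured 9.07, 18.49, 9.43, 9.62 and 8.27 in inverted teats, against 18.20, 16.99, 15.59, 9.15 and 17.48 in non-affected animals. Animal 964 was high among the inverted teats and animal 1058 low among the non-affected animals in both genes, so the groups overlapped. Prolactin-induced protein (PIP), a product of apocrine and other exocrine glands, measured 2.50, 10.16, 4.05, 3.31 and 8.80 in inverted teats, against 13.01, 10.76, 10.52, 2.13 and 11.30 in non-affected animals. PHEROC, the C subunit of pheromaxein, a steroid-binding protein known from boar saliva, measured 2.22, 11.30, 3.15, 0 and 5.11 in inverted teats, against 11.31, 9.03, 8.62, 1.23 and 10.12 in non-affected animals. Again animal 964 was high and 1058 low, and animal 1103 lay in between for PIP, CHIA and PHEROC.

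The differences of these genes were -5.54 ± 2.61 for CHIA (95% interval -11.26 to 0.18, unadjusted p = 0.0564 by limma), -4.51 ± 2.09 for SCGB1D1 (-9.09 to 0.075), -3.78 ± 2.05 for PIP (-8.28 to 0.71) and -3.71 ± 2.18 for PHEROC (-8.49 to 1.07). Adding 16 to each value on the linear scale, which damps values near 0, moved them to -3.84, -4.48, -3.36 and -2.67. For SCGB1D1, 4 of the 10 values compared exceed 16, and the deposited scale was taken as it stands. CHIA was listed at 0 in 3 inverted teats and in 1 non-affected animal, so its size is bounded by the lower end of the scale. The part of gland tissue in the dissected pieces in these differences was not tested.

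The normal teats of the same affected animals did not follow a simple split by teat form. CHIA measured 0, 11.75, 0, 0 and 11.78 in the normal teats of animals 963, 964, 1037, 1059 and 1103, and SCGB1D1 measured 9.17, 19.17, 9.15, 9.21 and 18.91. PIP there measured 4.04, 11.08, 4.09, 2.44 and 13.12, and PHEROC 0, 12.06, 3.65, 3.29 and 12.60. Animals 963, 1037 and 1059 were thus low in both of their teats, animal 964 was high in both, and animal 1103 was higher in its normal than in its inverted teat for all 4 genes. In the mesenchymal layer SCGB1D1 measured 9.51, 20.77, 8.59, 8.96 and 8.84 in inverted teats, against 20.58, 9.82, 19.16, 8.67 and 8.97 in non-affected animals, where animal 964 again was high among the affected. Lactoferrin (LTF), an iron-binding antimicrobial protein of milk and gland secretions, measured 8.09, 8.59, 8.25, 6.17 and 0.10 in inverted teats, against 9.32, 9.50, 9.85, 5.50 and 7.87 in non-affected animals. Its difference was -2.17 ± 1.49, and -0.64 without animal 1103. The protegrin NPG4, an antimicrobial peptide precursor of pig neutrophils, differed by -1.41 ± 0.86, and by -0.61 without animal 1103.

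**Figure D3:**
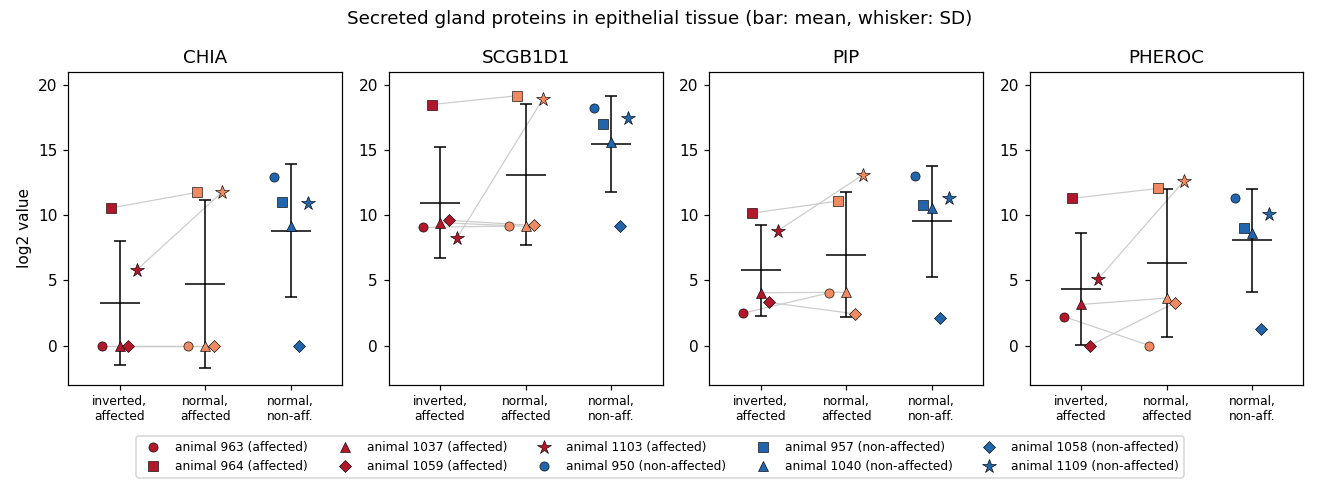
Log2 values (y axis) of 4 genes of secreted gland proteins in epithelial tissue of inverted and normal teats of affected animals and of normal teats of non-affected animals. Points are animals, grey lines join the 2 teats of an affected animal, bars are means and whiskers SD. In inverted teats animal 964 is high, and among the non-affected animals 1058 is low, in each of the 4 genes.

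Among genes with a symbol, skeletal muscle genes had the largest higher means in inverted teats, with wide overlap between groups. The fast myosin light chain MYLPF measured 11.47, 9.61, 10.22, 0.74 and 5.33 in inverted teats, against 8.79, 1.84, 0, 9.62 and 0 in non-affected animals, a difference of 3.43 ± 2.43 with a 95% interval of -1.90 to 8.75. Muscle creatine kinase (CKM), which regenerates ATP, measured 11.18, 8.97, 10.35, 5.64 and 8.36 in inverted teats, against 8.95, 4.93, 4.44, 10.03 and 4.25 in non-affected animals. Both genes were high in animals 963, 964 and 1037 among inverted teats and in 950 and 1058 among non-affected animals, and inverted animal 1103 was in between for MYLPF and near animals 964 and 950 for CKM. The troponin TNNC2 differed by 2.41 ± 2.11, the muscle phosphoglycerate mutase PGAM2 by 2.38 ± 1.40, CKM by 2.38 ± 1.30 and the calcium pump of fast fibres, ATP2A1, by 1.19 ± 0.54.

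All 11 tested genes of fast muscle had higher means in inverted teats, against 44.2% of all probe sets, and their median difference was 2.27, against -0.025 over all probe sets. MYLPF and CKM were high in the same animals, and the 11 genes, measured on the same 10 arrays, are not separate observations. The median ran from 1.25 without animal 1040 to 3.19 without animal 1058, and was 1.43 after adding 16. All 17 tested genes of slow or shared muscle also had higher means (median 0.76), 3 of them with an unadjusted limma p under 0.05, against 1.35% of all probe sets. The sarcomeric alpha-actinin ACTN2, which anchors thin filaments, measured 6.98, 5.73, 6.01, 6.03 and 6.26 in inverted teats, against 5.59, 5.36, 5.56, 5.26 and 5.42 in non-affected animals. Here the groups did not overlap, with a difference of 0.76 ± 0.21 (limma unadjusted p = 0.00346), and with 3.07 on its other probe set. ACTN2 was among the genes ranked by p in the same 10 animals, so its separation is no further support, beside 0.305% of probe sets separated in this direction. It did not follow the fast muscle mean in every animal. Non-affected animal 1058, with a mean of 8.94, had the lowest ACTN2 value, and inverted animal 1059, with a mean of 3.65, had 6.03. The beta-cardiac and slow myosin heavy chain MYH7 differed by 0.70 ± 0.30 and PDLIM3, a protein of muscle Z-discs, by 1.12 ± 0.39 (1.09 without animal 1103).

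Genes higher in inverted teats by at least 0.5 were ranked by their unadjusted p. Chromogranin B (CHGB), a protein of neuroendocrine secretory granules, measured 4.86, 4.98, 4.96, 5.41 and 4.94 in inverted teats, against 3.99, 4.43, 4.33, 4.52 and 4.38 in non-affected animals. All 5 inverted teats lay above all 5 non-affected animals, and the difference was 0.70 ± 0.15 on the deposited scale and 0.43 after adding 16. The 5 non-affected values lay under the 30th percentile of their arrays, so CHGB entered the test only through the inverted teats, where it is high, and its first place in the ranking and its separated groups are a description without a test. NR5A1, a nuclear receptor that drives steroid-making enzymes in gonads and adrenal glands, measured 6.18, 6.01, 5.71, 6.09 and 5.78 in inverted teats, against 5.48, 5.57, 5.36, 5.18 and 5.16 in non-affected animals, and the groups again did not overlap (difference 0.60 ± 0.14). Cholecystokinin (CCK), a peptide hormone of gut and brain, measured 5.53, 5.19, 5.19, 5.55 and 5.76 in inverted teats, against 4.82, 4.86, 5.04, 4.99 and 4.94 in non-affected animals. Its groups were also apart, with a difference of 0.52 ± 0.14. The synaptotagmin SYT5, a calcium sensor of secretory vesicles, measured 5.33, 5.85, 5.42, 5.47 and 5.85 in inverted teats, against 5.02, 5.13, 4.94, 5.27 and 4.97 in non-affected animals. DUSP7, a phosphatase of the MAP kinase ERK, measured 5.74, 6.11, 6.06, 5.78 and 5.89 in inverted teats, against 5.57, 5.59, 5.29, 5.41 and 5.03 in non-affected animals. Both genes had separated groups, with differences of 0.52 ± 0.14 and 0.54 ± 0.14. These levels are low for the arrays, whose medians over all probe sets ran from 5.77 to 5.88. All CCK values, and the non-affected values of SYT5 and DUSP7, lay under that range. NR5A1 lay at or below the array median on 6 of the 10 arrays. Because these genes were ranked by p in the same 10 animals, separated groups are no further support, and their count is to be read against the 0.305% of probe sets that were separated in this direction.

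Another 4 genes of that ranking overlapped between groups. The VEGF receptor FLT1, which is expressed by endothelium, averaged 5.30 ± 0.38 in inverted teats and 4.77 ± 0.34 in non-affected animals (SD, n = 5 each; difference 0.53 ± 0.21). The carbonyl reductase CBR2 averaged 6.02 ± 0.75 in inverted teats and 5.11 ± 0.50 in non-affected animals (difference 0.91 ± 0.35), and UBXN2A, a cofactor of the ATPase p97, differed by 0.72 ± 0.26. Threonine dehydrogenase (TDH), a mitochondrial enzyme of threonine breakdown, differed by 0.51 ± 0.19.

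Among genes lower in inverted teats, PPP2R2B had the smallest unadjusted p. This gene, for a subunit that directs protein phosphatase 2A to its targets, measured 4.54, 4.50, 4.81, 5.28 and 5.08 in inverted teats, against 5.44, 5.95, 5.67, 5.41 and 5.57 in non-affected animals. The 5 inverted teats lay below the 5 non-affected animals, and the difference was -0.77 ± 0.18 (95% interval -1.16 to -0.37, limma unadjusted p = 0.00119). Because PPP2R2B was ranked by p in the same 10 animals, its separated groups are no further support, beside 0.164% of probe sets separated in this direction. The inverted teats of animals 963 and 964 lay under the 30th percentiles of their arrays, 4.71 and 4.79. FKBP14, a peptidyl-prolyl isomerase of the endoplasmic reticulum that helps collagen to fold, measured 7.24, 7.66, 7.25, 7.77 and 7.15 in inverted teats, against 8.11, 7.74, 8.06, 7.77 and 8.27 in non-affected animals. Its groups overlapped narrowly, and the difference was -0.58 ± 0.17, with -0.25 and -0.29 on its other probe sets. DUSP6, a phosphatase that ERK signalling induces and that switches ERK off, measured 6.99, 6.77, 6.90, 6.52 and 7.21 in inverted teats, against 7.41, 7.84, 7.31, 7.06 and 7.65 in non-affected animals. The difference was -0.58 ± 0.18, opposite in sign to that of DUSP7, with -0.29 on its other probe set. The stress-induced GADD45G differed by -0.61 ± 0.21, and RGS1, which shortens G-protein signalling in lymphocytes, by -1.14 ± 0.44. RGS1 lay at or below the 30th percentile on 4 of 5 inverted arrays and 1 of 5 non-affected arrays, and its difference was -0.57 after adding 16. The soluble epoxide hydrolase EPHX2, which converts epoxy fatty acids, averaged 7.36 ± 0.57 in inverted teats and 8.19 ± 0.60 in non-affected animals (difference -0.83 ± 0.32). RWDD3, an enhancer of SUMO conjugation, differed by -0.61 ± 0.18, the SOCS-box protein ASB3 by -0.74 ± 0.26, the Ras-association protein RASSF4 by -0.50 ± 0.18, deoxycytidylate deaminase (DCTD) by -0.55 ± 0.20 and the mitochondrial protein MRPS36 by -0.51 ± 0.20.

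**Figure D4:**
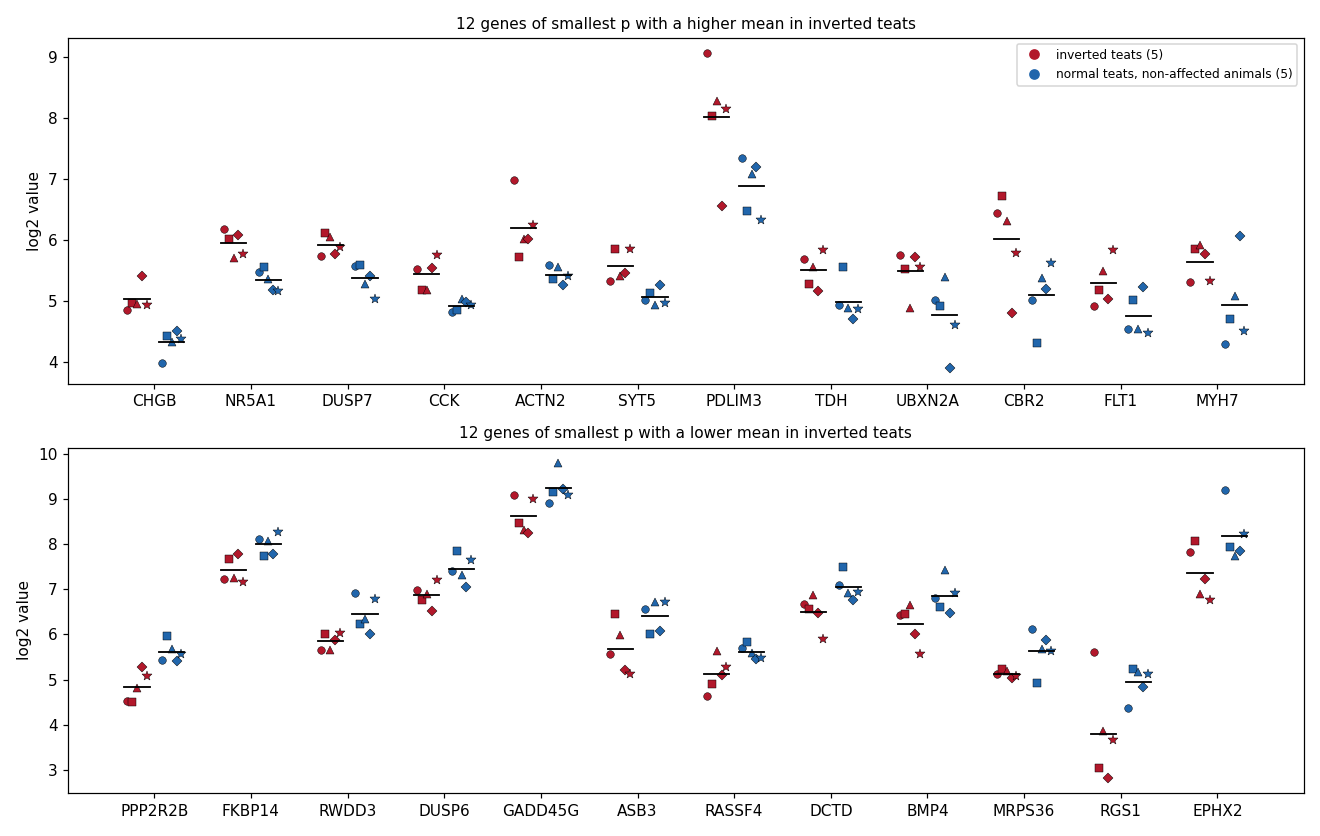
Log2 values (y axis) of the 12 higher and 12 lower genes with the smallest unadjusted p and a difference of at least 0.5, per animal, with inverted teats in red and left of the non-affected animals in blue. CHGB, NR5A1, DUSP7, CCK, ACTN2, SYT5 and PPP2R2B show separated groups, and the others overlap.

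The teat and mammary bud genes showed no shared direction. Of 50 genes listed for the bud and the PTHLH pathway, 19 were measured by a single-symbol probe set and 13 tested, of which 6 were higher and 7 lower in inverted teats (median -0.0031, -0.019 with 5 of 13 higher without animal 1103, or 0.023 after median centring, against -0.025 over all probe sets). By limma, 0 of these 13 genes had an adjusted p under 0.05, against 0% of all probe sets, and 1, BMP4, was lower with an unadjusted p under 0.05, against 1.25% of all probe sets. BMP4, the mesenchymal signal whose receptor response PTHLH raises in the bud, measured 6.42, 6.45, 6.65, 6.02 and 5.57 in inverted teats, against 6.81, 6.62, 7.42, 6.46 and 6.92 in non-affected animals. Its values overlapped between groups, and the difference was -0.63 ± 0.23 (95% interval -1.13 to -0.12). It remained lower, -0.46, without animal 1103. PTHLH measured 7.51, 7.59, 7.07, 6.93 and 4.66 in inverted teats, against 6.95, 7.56, 7.68, 6.32 and 7.28 in non-affected animals. Animal 1103 alone was far below the rest, and the PTHLH difference of -0.41 ± 0.50 became 0.12 without it. PTH1R averaged 5.67 ± 0.50 in inverted teats and 5.49 ± 0.22 in non-affected animals, and its difference of 0.18 ± 0.23 became -0.00038 without animal 1103. The 95% interval was -1.51 to 0.70 for PTHLH and -0.31 to 0.67 for PTH1R, which bounds what 5 animals per group could show.

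Transcription factors of the bud had small mean differences. MSX1, a homeobox factor of bud epithelium and mesenchyme, differed by -0.25 ± 0.20 (-0.15 without animal 1103), GATA3, a factor of luminal cells, by -0.18 ± 0.36 (0.14 without animal 1103), TBX2, a T-box factor of the mammary mesenchyme, by 0.13 ± 0.12 (0.18 and -0.24 on its other probe sets), HOXD8 by 0.052 ± 0.21 (-0.13 without animal 1103) and HOXD10 by 0.17 ± 0.22 (-0.019 without animal 1103). Among receptors, the fibroblast growth factor receptor FGFR2 differed by -0.083 ± 0.20, the BMP receptor BMPR1A by -0.044 ± 0.20 (-0.11 without animal 1103) and the semaphorin and VEGF co-receptor NRP2 by 0.032 ± 0.13 (0.049 without animal 1103). The relaxin-family hormone INSL3 differed by -0.0031 ± 0.26 (-0.17 without animal 1103). LEF1, a transcription factor of Wnt signalling, did not pass the filter on low values, with a difference of -0.17, and neither did RLN2, FGF7, FGF9, WNT10B and DKK1.

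Signalling lists were likewise divided. Of 27 tested TGF-beta and BMP genes, 10 were higher and 17 lower (median -0.069, -0.020 with 12 of 27 higher without animal 1103). The activin subunit INHBB differed by 0.58 ± 0.27. Of 19 Wnt, hedgehog and Notch genes, 8 were higher and 11 lower (median -0.068, -0.12 with 4 of 19 higher without animal 1103), among them Indian hedgehog (IHH) at 0.20 ± 0.14 (0.13 without animal 1103) and the Wnt co-receptor LRP6 at -0.31 ± 0.18. Of 27 growth factors and their receptor kinases, 11 were higher and 16 lower (median -0.022, -0.0024 with 13 of 27 higher without animal 1103, 0.015 after quantile normalization), with KITLG, the ligand of the receptor KIT, at 0.21 ± 0.13 (0.13 without animal 1103). Homeobox and forkhead factors numbered 10 higher and 11 lower (median -0.019, 0.00013 with 11 of 21 higher without animal 1103, 0.015 after quantile normalization), with FOXO1 at 0.31 ± 0.20 and GATA6, a zinc-finger factor on the same list, at -0.38 ± 0.20.

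Genes of epithelial cells had mostly lower means in inverted teats, which rested on animal 1103. Of 17 tested genes of epithelial junctions, 2 were higher and 15 lower (median -0.47), and without animal 1103 10 were higher and the median was 0.089. EPCAM, a homophilic adhesion protein, measured 10.43, 10.55, 9.60, 9.27 and 4.69 in inverted teats, against 10.37, 9.91, 9.91, 8.79 and 10.38 in non-affected animals. Its difference of -0.96 ± 0.94 became 0.089 without that animal, CDH1 moved likewise to 0.24 and DSP to 0.062. The apical transport protein MAL2 differed by -0.70 ± 0.49 (-0.22 without animal 1103, 0.49 on another probe set) and the catenin CTNND1 by 0.22 ± 0.20. Luminal and milk genes were split 9 higher and 12 lower (median -0.18, 0.14 without animal 1103, when 18 of 21 were higher). Mucin MUC1, a glycoprotein of the apical surface, averaged 6.04 ± 0.45 in inverted teats and 5.52 ± 0.48 in non-affected animals (difference 0.52 ± 0.26), and the water channel AQP5 of gland cells differed by -0.97 ± 0.91, or 0.011 without animal 1103.

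Keratinocyte and desmosome genes were split 3 higher and 10 lower (median -0.16, 0.062 without animal 1103). Involucrin (IVL), a protein of the cornified envelope, differed by 0.22 ± 0.28 and KLF4, a factor of skin barrier formation, by -0.28 ± 0.22. Hair, sebaceous and sweat gland genes had 6 tested members, 3 in each direction (median -0.0061, 0.088 with 5 of 6 higher without animal 1103, 0.027 after quantile normalization), with the triglyceride-making enzyme DGAT2 at 0.25 ± 0.65. Secreted antimicrobial genes had 7 higher and 11 lower (median -0.047, 0.12 without animal 1103), and beta-defensin 1 (DEFB1) stood at 0.33 ± 0.14.

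Smooth muscle and vessel genes had mostly higher means in inverted teats, which rested on animal 1103 for smooth muscle and in part for vessels. Of 20 tested smooth muscle genes, 18 were higher (median 0.24), and without animal 1103 6 were higher and the median was -0.039. The array means of this list were 8.98, 8.84, 9.11, 8.93 and 10.58 in inverted teats, against 8.83, 9.10, 8.83, 9.35 and 8.70 in non-affected animals, with animal 1103 above the other 9. Smooth muscle actin (ACTA2) itself differed by -0.053 ± 0.15, -0.16 without animal 1103 and 0.069 after quantile normalization, and PDLIM3, on the list too, by the value given above. Of 25 blood and lymph vessel genes, 22 were higher (median 0.20), and without animal 1103 16 were higher (median 0.075). Thrombomodulin (THBD), an anticoagulant receptor of endothelium, differed by 0.38 ± 0.14, the adhesion protein PECAM1 by 0.12 ± 0.17 (-0.0062 without animal 1103) and VEGFA, the vessel growth factor, by -0.085 ± 0.19 (-0.17 without animal 1103). On the array of animal 1103 these lists moved together with the low keratin mean, and the part of tissue composition in them was not tested further.

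Among connective tissue genes, the fibroblast matrix, elastic fibre and protease lists leaned slightly lower, and the basement membrane and integrin list leaned higher. Over all probe sets, 44.2% had a higher mean in inverted teats. Of 29 tested genes of fibroblast matrix, 9 were higher and 20 lower (median -0.16, -0.079 without animal 1103). Dermatopontin (DPT), a dermal matrix protein, averaged 10.38 ± 0.20 in inverted teats and 10.71 ± 0.25 in non-affected animals (difference -0.33 ± 0.15), and tenascin C (TNC), a matrix protein of the bud mesenchyme, differed by 0.17 ± 0.24 (0.29 without animal 1103). Elastic fibre and cross-linking genes had 2 higher and 11 lower (median -0.086, 0.0086 with 7 of 13 higher without animal 1103), with fibrillin 1 (FBN1) at 0.12 ± 0.18 (0.28 without animal 1103) and the collagen prolyl hydroxylase subunit P4HA2 at -0.34 ± 0.27 (-0.079 without animal 1103). Matrix proteases and their inhibitors had 5 higher and 12 lower (median -0.028), with the collagen-degrading cathepsin CTSK at -0.40 ± 0.27 and ADAM17, which sheds membrane proteins, at 0.19 ± 0.14 (-0.16 on another probe set). Basement membrane and integrin genes had 10 higher and 3 lower (median 0.064, 0.040 with 8 of 13 higher without animal 1103), with the fibronectin receptor chain ITGA5 at 0.47 ± 0.25 and ITGB3 at -0.32 ± 0.14.

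Fat, nerve and pigment cell genes showed no common shift. Adipocyte genes had 13 higher and 12 lower (median 0.0043, 0.022 with 17 of 25 higher without animal 1103). The adipocyte hormone adiponectin (ADIPOQ) differed by -0.60 ± 0.90 (-0.24 without animal 1103), the lipid droplet protein PLIN2 by -0.42 ± 0.44 (-0.018 without animal 1103) and monoglyceride lipase (MGLL) by 0.30 ± 0.41 (-0.040 without animal 1103). Schwann cell and neuron genes had 4 in each direction (median 0.070, 0.12 with 5 of 8 higher without animal 1103), with neurotrophin 3 (NTF3) at 0.46 ± 0.19 and the growth cone protein GAP43 at -0.28 ± 0.21. Of 7 melanocyte genes 5 were higher (median 0.16), with the pigment transporter SLC45A2 at 0.28 ± 0.15 and the receptor KIT at -0.45 ± 0.41 (-0.13 without animal 1103).

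Immune genes differed in small steps. Leukocyte genes had 7 higher and 13 lower (median -0.071), and 12 of 20 higher without animal 1103 (median 0.017). The T cell receptor component CD3D differed by 0.47 ± 0.25 and PTPRC, the common leukocyte antigen, by -0.31 ± 0.25. Antigen presentation genes had 9 higher and 15 lower (median -0.087, -0.0071 with 11 of 24 higher without animal 1103), with the class I gene SLA-2 at 0.23 ± 0.20 and SLA-DMA, a class II peptide loader, at -0.24 ± 0.15 (-0.16 without animal 1103). Of 21 interferon-stimulated genes, 18 were higher (median 0.11, 0.10 with 16 of 21 higher without animal 1103, -0.065 without animal 1037). The array means of this list were 6.72, 6.18, 7.68, 6.43 and 6.86 in inverted teats and 6.74, 6.43, 6.29, 6.68 and 6.80 in non-affected animals, so they overlapped. The transcription factor IRF1 differed by 0.31 ± 0.25 and the nuclear body protein SP110 by -0.13 ± 0.17. Cytokines and their receptors had 13 higher and 12 lower (median 0.016, 0.12 with 16 of 25 higher without animal 1103), with the homing receptor CCR7 at 0.30 ± 0.18 and NFKBIA, the inhibitor of NF-kappa-B, at -0.39 ± 0.15.

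Hormone and stress genes were more often lower than higher over the 10 arrays, where 44.2% of all probe sets had a higher mean in inverted teats. Of 33 genes of steroid, prolactin and growth hormone action, 10 were higher and 23 lower (median -0.059, 0.0031 with 17 of 33 higher without animal 1103). HSD11B1, which activates glucocorticoids, averaged 8.08 ± 0.69 in inverted teats and 8.81 ± 0.62 in non-affected animals (difference -0.73 ± 0.36, -0.47 without animal 1103), and the retinoid receptor RXRA differed by 0.29 ± 0.18 (0.19 without animal 1103). Immediate early and heat shock genes had 10 higher and 34 lower (median -0.13, -0.11 with 18 of 44 higher without animal 1103). The small heat shock protein HSPB8 differed by 0.64 ± 0.36 (0.33 without animal 1103). Unfolded protein and secretion genes had 6 higher and 26 lower (median -0.11, -0.026 with 13 of 32 higher without animal 1103). The chaperone calreticulin (CALR) differed by 0.24 ± 0.16 and the signal recognition particle protein SRP14 by -0.17 ± 0.12. Apoptosis genes had 5 higher and 13 lower (median -0.091, -0.049 with 7 of 18 higher without animal 1103), with the pro-death BCL2L11 at 0.27 ± 0.15 and caspase 6 (CASP6) at -0.55 ± 0.23. Cell cycle genes had 18 higher and 13 lower (median 0.046, 0.068 with 23 of 31 higher without animal 1103), with the kinase CDK2 at 0.41 ± 0.14 (-0.10 on another probe set) and the checkpoint protein MAD2L1 at -0.35 ± 0.23 (-0.23 without animal 1103).

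Housekeeping and metabolic lists lay close to 0. Of 60 genes of cytosolic ribosomes 3 were higher and 57 lower (median -0.11), but quantile normalization gave 32 higher and a median of 0.0027, so this direction depends on the scaling. The ribosomal protein genes RPL26 and RPS25 differed by 0.20 ± 0.18 and -0.22 ± 0.11, with 0.11 on another probe set of RPS25. Respiratory chain genes had 19 higher and 39 lower (median -0.028, -0.015 with 25 of 58 higher without animal 1103), with ATP5O of the ATP synthase at 0.11 ± 0.11 and NDUFA5 of complex I at -0.25 ± 0.15. Splicing genes had 20 higher and 31 lower (median -0.027, -0.013 with 23 of 51 higher without animal 1103), with the RNA-binding protein PCBP2 at 0.23 ± 0.21 (-0.0098 on another probe set) and the spliceosome core protein SNRPD3 at -0.33 ± 0.14. Proteasome genes had 9 higher and 27 lower (median -0.043, -0.00047 with 18 of 36 higher without animal 1103), with the regulatory subunits PSMC1 at 0.12 ± 0.16 and PSMD10 at -0.34 ± 0.17. Glycolysis and hypoxia genes had 15 higher and 11 lower (median 0.021), with the phosphofructokinase PFKP at 0.42 ± 0.24 and the hypoxia-induced ANKRD37 at -0.41 ± 0.17. Cholesterol synthesis genes had 9 higher and 7 lower (median 0.0093, 0.025 with 9 of 16 higher without animal 1103), with the lipogenic factor SREBF1 at 0.33 ± 0.23 and INSIG2, which retains it in the endoplasmic reticulum, at -0.26 ± 0.24. Genes often used as references had 3 higher and 8 lower (median -0.039, -0.023 with 5 of 11 higher without animal 1103, 0.022 with 8 higher after quantile normalization), with PGK1 at 0.037 ± 0.17 (0.058 without animal 1103) and HPRT1 at -0.22 ± 0.23 (-0.13 without animal 1103).

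**Figure D5:**
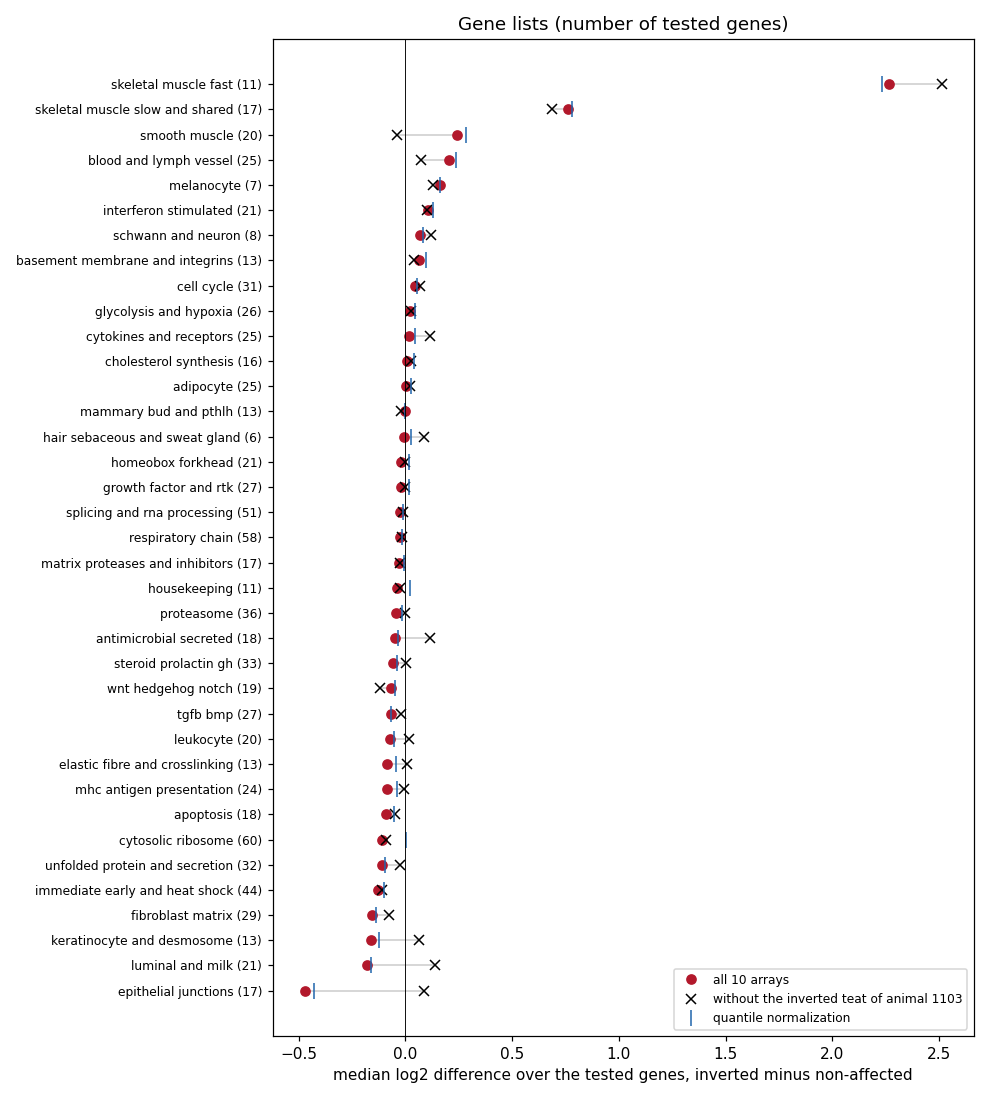
Median log2 difference, inverted minus non-affected (x axis), over the tested genes of each list (y axis, number of tested genes in brackets), for all 10 arrays, without the inverted teat of animal 1103, and after quantile normalization. Fast skeletal muscle lies at 2.27, and the epithelial junction list moves to 0.089 and the smooth muscle list to -0.039 without animal 1103.

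The same 10 animals also gave mesenchymal arrays, so the difference between tissues could be tested as an interaction over 20 arrays with the animal as a random block. Limma called 0 of 18272 probe sets at an adjusted p under 0.05, with 600 (3.28%) at an unadjusted p under 0.05. Within mesenchyme the same contrast, taken from this 20-array limma model, also gave 0 calls, with 340 higher and 100 lower at an unadjusted p under 0.05. The mesenchymal arrays were not fitted alone, so these counts are not comparable with those of the 10 epithelial arrays. NR5A1, with an unadjusted limma interaction p of 0.000142, differed by 0.60 in epithelium and -0.19 in mesenchyme. The anion exchanger SLC26A6 differed by -1.02 in epithelium, where it did not pass the filter on low values, and 0.29 in mesenchyme. The heme-binding plasma protein hemopexin (HPX) differed by -0.46 in epithelium and 0.40 in mesenchyme. BMP4, lower in the epithelial layer of inverted teats, differed by 0.17 in mesenchyme (interaction -0.80 ± 0.27, not passing limma's adjusted threshold).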

How the data were processed

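Total RNA of 30 tissue samples from 10 pigs was measured on the Affymetrix Porcine Genome Array. The deposited table gives 1 log2 value per probe set and array, with the base inferred from the range. GCOS 1.1.1 and PLIER are named, without roles, in the submitters' processing notes, and normalization between arrays is not given in the sources used here. The design text names an analysis of variance.

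Values were used as deposited. Limma 3.58.1 in R 4.3.3 was fitted to the 10 arrays (2 group means, empirical Bayes, Benjamini-Hochberg, two-sided, threshold 0.05). Probe sets entered the test if at least 5 of 10 arrays exceeded their own 30th percentile, which left 17065 of 24123 after 124 controls were set aside. Gene symbols came from the platform annotation (10099 probe sets with 1 symbol, 198 with several, 13826 unnamed here), and 9989 of the first were found in a RefSeq gene table. Of several probe sets for a gene, the brightest over all 30 arrays was taken. Named genes were, per direction, the 12 smallest p with a difference of at least 0.5, the 4 largest differences, the smallest p of each list, the smallest interaction p, and fixed bud and marker genes. Members and lists were chosen with earlier results of these data known. Each array of the comparison is 1 tissue sample of a separate animal. The SD therefore joins differences between animals, teats and dissected pieces, and the p sets the group difference against that spread. The fit was tested on simulated data. Alternatives covered scaling, filter, variance model, breed, tissue covariates, the 15 epithelial arrays with the animal as a block, and each animal left out. Array number limits the precision.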

Additional observations from a re-analysis of the deposited data

Results flagged for a closer look

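In groups of 5 animals, a value was marked where its gap to the nearest other animal of its group exceeded 0.71 of the group's range. Of 302 group checks, 29 were marked. In independent groups of normally distributed values about 1 in 20 would be marked. These checks reuse the same 10 animals and related genes, so their count cannot be set against that rate. The inverted teat of animal 1103 was lowest of its group, with 10.39 for FBN1 (next 11.11), 0.10 for LTF (next 6.17), 4.66 for PTHLH (next 6.93), 6.87 for KRT19 (next 10.69) and 4.69 for EPCAM (next 9.27). Further lowest values there were 4.87 for CDH1 (next 9.63), 4.63 for DSP (next 8.53), 4.78 for the epithelial junction list mean (next 6.78), 4.63 for the secreted antimicrobial list mean (next 6.09) and 6.48 for the growth factor list mean (next 6.67). It was highest of its group, with 10.58 for the smooth muscle list mean (next 9.11). The inverted teat of animal 964 was highest, with 18.49 for SCGB1D1 (next 9.62) and 11.28 for PCBP2 (next 10.70). It was lowest, with 6.85 for PFKP (next 7.45). The inverted teat of animal 1037 was lowest, with 4.90 for UBXN2A (next 5.53). The inverted teat of animal 1059 was highest, with 5.41 for CHGB (next 4.98). Among non-affected animals, animal 1058 was lowest, with 0 for CHIA (next 9.19), 9.15 for SCGB1D1 (next 15.59), 2.13 for PIP (next 10.52), 1.23 for PHEROC (next 8.62) and 7.64 for DSP (next 9.10). Further lowest values there were 5.69 for the secreted antimicrobial list mean (next 6.31), 12.01 for the ribosome list mean (next 12.16) and 8.50 for the splicing list mean (next 8.64). It was highest, with 7.73 for the vessel list mean (next 7.39). Animal 957 was highest, with 5.56 for TDH (next 4.93) and 5.77 for SREBF1 (next 4.68). It was lowest, with 6.27 for ANKRD37 (next 6.74). Animal 1040 was highest, with 12.93 for RPS25 (next 12.76).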

How the results depend on the processing

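Under every alternative but no filter, limma again called 0 probe sets at an adjusted p under 0.05, including the unmoderated model (513 at an unadjusted p under 0.05) and each animal left out (0 to 0). Without the filter 1 of 23999 passed, a probe set with no gene name here that was singled out after its values were seen and measured 1.79 to 3.06 in inverted teats and 0 to 0.23 in non-affected animals, below the filter's floor on all 10 arrays. No paired analysis was possible because the groups hold different animals and share no replicate numbers. With all 15 epithelial arrays and the animal as a replicate block (correlation 0.41), 0 passed, with 217 and 193 higher and lower at an unadjusted p under 0.05, against 231 and 214. That split was 107 and 154 under a stricter filter, 385 and 489 with array weights and 486 and 337 with no filter, and leaving out 1 animal gave 278 (without 1109) to 616 (without 1058) in all. The interaction with tissue stayed at 0 calls without the replicate block (209 unadjusted) and after quantile normalization (491). With the skeletal muscle mean as a covariate the sign turned for MYLPF -0.63, TNNC2 -1.06, DGAT2 -0.19, PGK1 -0.16 and CSN2 -1.26. MYLPF and TNNC2 are themselves part of that mean, so a loss of their difference was partly built in and is no separate check. In the 6 Large White x German Landrace animals alone it turned for P4HA2 0.074, DGAT2 -0.68, AQP5 0.32, NPG4 0.55, MGLL -0.33, PLIN2 0.31, PSMC1 -0.066, PGK1 -0.092, PTHLH 0.21, KRT8 0.56, KRT18 0.18, KRT19 0.37, EPCAM 0.12, CDH1 0.41, DSP 0.24 and PECAM1 -0.064. That subset leaves out animal 1103, so breed and that array cannot be told apart in it. With quantile normalization the sign turned for ACTA2 0.069. With array weights it turned for IVL -0.050. With the keratin mean as a covariate it turned for KRT8 0.22, but KRT8 is itself part of that mean, so this is no separate check. Other probe sets gave the opposite sign for ADAM17 -0.16, MAL2 0.49, TBX2 -0.24, CDK2 -0.10, RPS25 0.11 and PCBP2 -0.0098. With 1 animal left out the sign turned within the range of ACTA2 (-0.16 to 0.023), VEGFA (-0.19 to 0.058), DGAT2 (-0.014 to 0.76), AQP5 (-1.39 to 0.011), MGLL (-0.040 to 0.58), PGK1 (-0.051 to 0.13), PTHLH (-0.62 to 0.12), PTH1R (-0.00038 to 0.33), KRT8 (-0.53 to 0.40), KRT18 (-0.71 to 0.039), KRT19 (-1.05 to 0.11), EPCAM (-1.38 to 0.089), CDH1 (-1.25 to 0.24), DSP (-1.19 to 0.062), ADIPOQ (-1.12 to 0.074), PECAM1 (-0.0062 to 0.20) and CSN2 (-1.02 to 2.06), and leaving out animal 1103 was the turning step for AQP5, MGLL, PTHLH, PTH1R, KRT8, KRT18, KRT19, EPCAM, CDH1, DSP and PECAM1. The causes were not tested. Values near the lower end of the scale and 5 animals per group limit precision.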

Other observations

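Another 4 genes, chosen after their values were seen, resembled the gland proteins in a lower mean in inverted teats and in animal 1058 being lowest of the non-affected animals. The tight junction protein CLDN11 measured 6.85, 7.66, 8.02, 8.09 and 5.77 in inverted teats, against 8.31, 9.22, 9.41, 6.96 and 9.31 in non-affected animals, and the carbonyl reductase CBR1 measured 7.99, 10.30, 6.91, 7.37 and 4.95 in inverted teats, against 10.75, 10.05, 9.21, 6.92 and 9.61 in non-affected animals. Their differences were -1.36 ± 0.54 and -1.80 ± 0.91, and -0.99 and -1.16 without animal 1103. The kynurenine pathway enzymes KMO and KYNU, which break down tryptophan, differed by -1.19 ± 0.55 and -1.38 ± 0.72. KYNU lay at or below the 30th percentile on 3 inverted and 2 non-affected arrays, and its difference was -0.96 after adding 16. KMO measured 5.60, 7.03, 6.32, 5.20 and 5.37 in inverted teats, against 8.80, 7.64, 6.55, 5.46 and 7.01 in non-affected animals, and KYNU 3.51, 5.83, 4.76, 4.07 and 3.12 in inverted teats, against 7.58, 5.68, 4.73, 3.55 and 6.64 in non-affected animals. Animal 964 was highest of the inverted teats in CBR1, KMO and KYNU, but not in CLDN11. The likeness of these 4 genes to the gland proteins was not tested. Because they were chosen after their values were seen, it is no further support.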
